A study of Mus musculus with 7 samples.

Results

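The Hox cluster genes were examined in embryonic forebrain of the mouse. They were taken as every array probe whose transcript accession carries, in the RefSeq gene table of GRCm38.p6, a symbol made of Hox, a cluster letter from a to d and a number. Of 39 such genes in that table, 36 had a named probe on the array, out of 17178 named genes in all, and Hoxc4, Hoxc6 and Hoxc11 had none. The 36 genes were read by 46 probes, 26 genes having 1 probe and 10 genes having 2.

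RNA came from the subpallium, the ventral forebrain that holds the ganglionic eminences and the septum, dissected from female CD-1 embryos at E12.5 (embryonic day). The study set 4 control arrays beside 3 arrays labelled Otx2cKO, each from 1 embryo and each hybridised in a single colour (Cy3). In the Otx2cKO embryos a floxed allele of Otx2, a homeobox gene of anterior brain, was combined with RxCre, a Cre line active across the forebrain apart from its caudal dorsomedial part, which leaves the choroid plexus and cortical hem unrecombined. The sources used here do not give the alleles that the control embryos carried. The arrays lay on 2 slides. The litter label of each embryo joins a pair of numbers whose roles it does not explain; with the first read as the litter, the embryos came from 4 litters, and litter 2 held control replicates 2 and 3 and Otx2cKO replicates 1 and 3. Slide 1 held control replicates 1 and 2 with Otx2cKO replicate 1.

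Hox genes encode homeodomain transcription factors that give cells their position along the head-to-tail axis. In mammals they lie in clusters on separate chromosomes, and their order within a cluster follows the order in which they are switched on in time and along the body. In the neural tube their expression begins in the hindbrain and extends through the spinal cord, while the forebrain and midbrain are known as Hox-negative territory held silent by Polycomb repressors.

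The label of the knockout group was first set against its target. Otx2 read 0.13, 0.48, 0.42 and 0.50 on control replicates 1 to 4 and 1.73, 2.27 and 1.72 on the arrays labelled Otx2cKO 1 to 3, as log2 signal relative to the 75th percentile of each array. Otx2 was thus higher on the arrays labelled Otx2cKO, by 1.52 ± 0.167 (SE; limma adjusted p = 0.0288), with no overlap between the groups. With any 1 array left out the difference was 1.34 to 1.62 and the adjusted p 0.0534 to 0.137, so the call, though not the direction, needed all 7 arrays. The sources used here do not place the Otx2 probe inside or outside the deleted part of the gene, so every direction below rests on the labels alone. Each array had 76% to 79.7% of the named genes well above background, and its 75th percentile signal was between 1741 and 2519. The forebrain label held against its markers: all 12 genes of the forebrain list, among them Six3, Nkx2-1 and the Dlx genes, were well above background on all 7 arrays when spots flagged as outliers were counted. With such spots dropped, as for the Hox genes below, 9 of the 12 were on all 7 arrays and all 12 on at least 3. Dlx1, Dlx2 and Lhx2 were then each missing on an Otx2cKO array.

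Most Hox genes were flagged as well above background on no array. The scanner software flags a spot as well above background when its signal exceeds its background by a set multiple of the background's spread, and a gene was counted on an array where any of its probes had that flag. Of the 36 Hox genes, 21 (58.3%) had the flag on no array, against 2319 of the 17178 named genes (13.5%). Another 7 had it on 1 or 2 arrays and 8 (22.2%) on at least 3, where 79.4% of all named genes reached at least 3 arrays. Only Hoxa3 and Hoxa7 had it on all 7 arrays, or 5.56% of the Hox genes, against 70.9% of all named genes. Single arrays had between 5 Hox genes well above background, on Otx2cKO replicate 3, and 8, on control replicate 3 and Otx2cKO replicate 2.

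The detected genes were unevenly spread over the clusters. Cluster A, on chromosome 6, had 4 of its 11 measured genes on at least 3 arrays: Hoxa3, Hoxa6, Hoxa7 and Hoxa9. Cluster B, on chromosome 11, had 3 of 10: Hoxb4, Hoxb6 and Hoxb8. Cluster C, on chromosome 15, had 1 of 6, Hoxc5. Cluster D, on chromosome 2, had 0 of 9, and 8 of its 9 genes were on no array. By position within the clusters, 1 of 8 genes numbered 1 to 3 reached at least 3 arrays, 6 of 13 numbered 4 to 8, and 1 of 15 numbered 9 to 13. The middle of clusters A and B therefore held most of the genes that were detected. Hoxb1, which marks the hindbrain early in development, and Hoxd1 were on 0 arrays, and the number 13 genes of the tail, limb buds and genital tubercle were on 0 or 1 array.

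**Figure D1:**
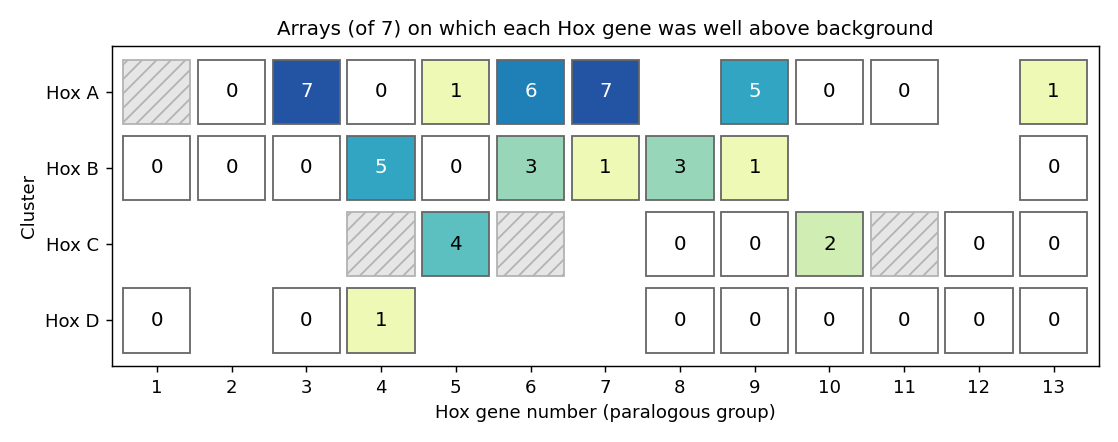
Number of arrays (of 7) on which each Hox gene was well above background, by cluster (rows) and by gene number within the cluster (columns); hatched cells have no named probe or no value shown and empty places hold no gene. Hoxa3 and Hoxa7 reach all 7 arrays, Hoxa6, Hoxa9 and Hoxb4 reach 5 or 6, and cluster D has a single gene above 0.

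The flag has its own rate of false calls, and it was measured on the spots that carry no mouse sequence. Of 1071 readings of negative control spots, 28 (2.61%) had the flag, between 1.96% and 3.27% by array. For the Hox probes the rate was 49 of 322 probe readings (15.2%), and for the probes of Hox genes that did not reach 3 arrays it was 9 of 252 (3.57%), a subset picked for being rarely detected. Once spots flagged as outliers were removed, 0 of 1013 negative control readings kept the flag. The outlier flag works in part by comparing repeated spots, which most Hox probes do not have.

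Hoxb1, needed for the identity of a hindbrain segment, shows what repeated spots add, since its probe is printed 10 times. Among its 70 readings, 2 had the flag. On Otx2cKO replicate 1 a spot read 65.2 where the next highest read 14.5, and on Otx2cKO replicate 3 a spot read 23.4 where the next read 0.845. Both were marked as outliers among their own repeats, and 0 of the 64 unflagged readings was well above background. The median of the 10 spots lay between -9.33 and 2.28 on every array. A single spot of this probe could therefore read as high as 65.2 while its repeats stayed at background. Some Hox readings from 1 spot were higher, among them Hoxb7 at 71.8 on control replicate 1 and Hoxb4 at 129 on control replicate 2.

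The 21 genes on no array had signals from -11.3 to 21.8 with a median of -2.43 (182 readings of 26 probes), and negative control spots without outlier flags ran from -20.1 to 14.9 with a median of -7.79. Negative signals arise because the software has already subtracted the background. These genes took in all of Hoxd1, Hoxd3 and Hoxd8 to Hoxd13, as well as Hoxa2, Hoxa4, Hoxa10 and Hoxa11 in cluster A.

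Of the 7 genes seen on 1 or 2 arrays, 6 were seen on 1 array, in each case a control. On control replicate 1, Hoxa5, a gene of the neck and thorax, was seen at a signal of 25.0, and Hoxb7, a gene of the trunk, at 71.8. On the other 6 arrays Hoxb7 read between -5.69 and 8.14, so its 1 high value stood apart from all other readings of that probe. Hoxa13 read 12.3 on control replicate 2, and Hoxd4, the only detected gene of cluster D, read 21.4 on control replicate 4. Hoxc10, a gene of lumbar spinal cord, read 68.8 on control replicate 2 and 22.6 on Otx2cKO replicate 3. Hoxa13, Hoxc10 and Hoxb9 have a second probe to compare. For Hoxa13 it read 0.08 on control replicate 2, and for Hoxc10 it read 7.76 on control replicate 2 and 1.75 on Otx2cKO replicate 3, none of them well above background, so the second probes of these genes did not share the call. For Hoxb9 both did: its probes read 52.2 and 20.2, both well above background, on control replicate 3, and neither was well above background on any other array. No Hox probe with a single spot carried an outlier flag on any array.

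For the 4 genes of cluster A that reached at least 3 arrays, the region around the transcription start is shown, since they lie close together on chromosome 6, on the minus strand. RefSeq sequence of GRCm38.p6 covers 250 bases before and 50 after each start, at chr6:52213018-52213317 for Hoxa3, chr6:52208623-52208922 for Hoxa6, chr6:52218524-52218823 for Hoxa7 and chr6:52227321-52227620 for Hoxa9. They are written 5′ to 3′ and capitals mark CpG dinucleotides, the sites where DNA can be methylated and which Polycomb-bound promoters often hold in number.
Hoxa3: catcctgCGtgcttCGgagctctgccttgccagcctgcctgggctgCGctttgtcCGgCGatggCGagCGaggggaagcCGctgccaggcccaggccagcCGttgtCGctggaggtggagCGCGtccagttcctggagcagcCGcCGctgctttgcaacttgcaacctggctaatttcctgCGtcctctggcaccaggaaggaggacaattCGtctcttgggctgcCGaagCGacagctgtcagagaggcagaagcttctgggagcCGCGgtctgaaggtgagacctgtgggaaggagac
Hoxa6: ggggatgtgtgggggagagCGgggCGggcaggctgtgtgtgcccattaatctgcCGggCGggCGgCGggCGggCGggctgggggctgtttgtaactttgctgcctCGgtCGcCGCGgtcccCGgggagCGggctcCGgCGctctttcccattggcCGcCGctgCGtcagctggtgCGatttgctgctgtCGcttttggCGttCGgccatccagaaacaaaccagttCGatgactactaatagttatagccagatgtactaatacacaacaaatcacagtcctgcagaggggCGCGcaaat
Hoxa7: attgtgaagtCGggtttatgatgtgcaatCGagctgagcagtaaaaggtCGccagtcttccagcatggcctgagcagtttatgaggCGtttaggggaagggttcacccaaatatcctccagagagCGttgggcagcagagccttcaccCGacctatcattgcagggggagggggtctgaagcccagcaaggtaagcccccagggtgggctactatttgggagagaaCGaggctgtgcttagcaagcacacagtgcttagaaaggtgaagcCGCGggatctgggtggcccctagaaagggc
Hoxa9: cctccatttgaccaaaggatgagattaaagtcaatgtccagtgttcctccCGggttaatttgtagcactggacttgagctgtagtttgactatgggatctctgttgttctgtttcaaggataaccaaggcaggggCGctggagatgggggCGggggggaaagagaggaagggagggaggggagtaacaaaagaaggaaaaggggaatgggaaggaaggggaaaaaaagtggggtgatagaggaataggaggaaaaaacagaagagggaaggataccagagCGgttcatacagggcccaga

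The windows held 20 CpGs at Hoxa3, 26 at Hoxa6, 9 at Hoxa7 and 4 at Hoxa9. Hoxa9, with Hoxd4 and 1 of the Hoxd11 windows, had the lowest count among the 24 Hox windows in the table, which ran from 4 to 45 with a median of 14.5, against a median of 7 over all 32851 windows. The table held windows for 21 of the 36 measured Hox genes. A TATA box (TATAAA), searched on both strands, was in 4 of the 24 Hox windows (16.7%) and in 13.6% of all windows. The letters TAATCC, which bicoid-type homeodomains such as that of OTX2 bind, were in 0 of the 24 and in 7.06% of all. The PBX-HOX composite motif (TGATTNAT) was in 2 of the 24 (8.33%), at Hoxa2 and Hoxd11, and in 3.22% of all. None of these 3 motifs was in the 4 windows printed above. No Hox window held more than 1 kind of motif, so no matches of different motifs overlapped there, and a match only describes the sequence.

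The 8 Hox genes on at least 3 arrays were then compared between the groups. 0 of the 8 passed the limma test (adjusted p under 0.05 over all 13341 genes tested), where 0.21% of all genes did (0.0899% higher and 0.12% lower on the arrays labelled Otx2cKO), and 1 of the 8, Hoxa9, had an unadjusted p under 0.05, as 11.1% of all genes did. Hoxa9 was also the only one whose groups did not overlap, which held for 12.7% of all genes (every Otx2cKO array above every control for 5.45%, below for 7.26%). Of the 8 genes, 5 had a higher mean on the arrays labelled Otx2cKO and 3 a lower one, with a median log2 difference of 0.09, against 0.02 and 54.2% higher over all genes. The median standard error of the 8 differences was 0.376 on the log2 scale and that of all genes 0.129, so a difference has to be larger to be seen in these genes.

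**Figure D2:**
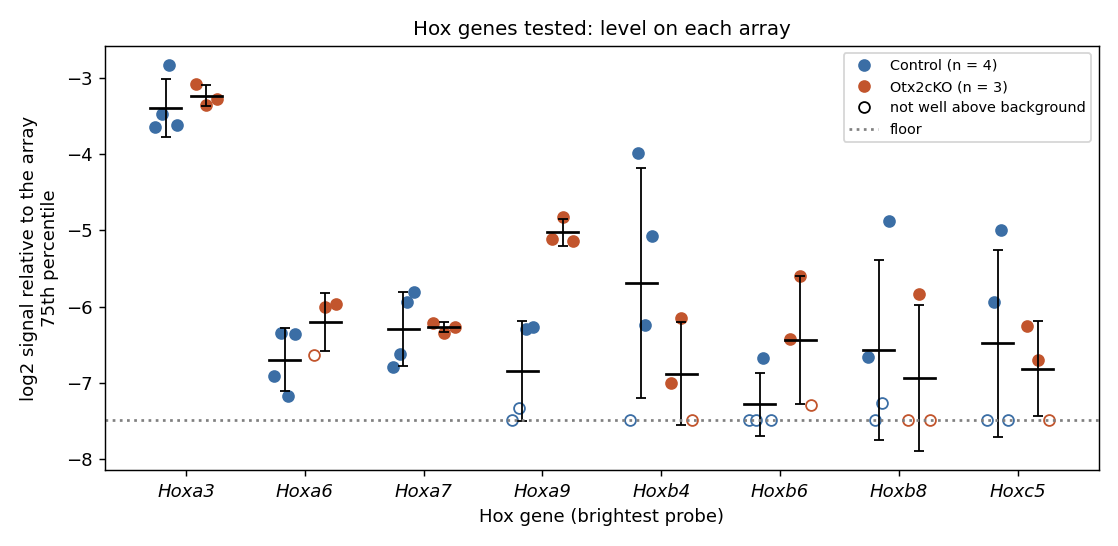
Level of the 8 tested Hox genes on each array (log2 signal relative to the array's 75th percentile), for 4 control and 3 Otx2cKO arrays; bars give the mean and SD, open points were not well above background and the dotted line is the floor of -7.49 below which no signal was ordered. Hoxa9 is the only gene whose groups are apart, and Hoxb4, Hoxb6, Hoxb8 and Hoxc5 each have 2 or 3 arrays at the floor.

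Hoxa9, a gene of posterior body and blood progenitors, had the clearest difference. Its background-subtracted signal was 11.2, 12.6, 24.4 and 28.8 on control replicates 1 to 4 and 60, 77.6 and 49.3 on Otx2cKO replicates 1 to 3. All 3 Otx2cKO arrays lay above all 4 controls, and control replicates 1 and 2 were not well above background. As log2 levels the controls read -7.49 (the floor), -7.33, -6.30 and -6.27, with a mean of -6.85 (SD 0.65, n = 4), and the Otx2cKO arrays -5.11, -4.82 and -5.14, with a mean of -5.03 (SD 0.18, n = 3). The difference was 1.82 ± 0.343 (95% interval 1.01 to 2.63), with a limma unadjusted p of 0.00119 and an adjusted p of 0.17, and 91 of the 13341 genes had a smaller p. Its size rests in part on the floor and on control signals that were not well above background: with the floor 1 log2 unit lower it was 1.90. Hoxa9 has 1 probe of 1 spot on this array, so no second probe bears on it, and its gene model overlaps no other gene in the RefSeq table.

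The Hoxa9 difference was above 0 under all 24 other settings in which it was tested, from 0.72 to 2.29, with adjusted p from 0.028 to 0.79. It passed the threshold under 1 of them, the values the authors deposited in the series' own table: 5.97, 6.10, 6.27 and 6.19 for the controls and 6.99, 6.94 and 6.79 for the Otx2cKO arrays, a log2 difference of 0.77 with an adjusted p of 0.028. Those values follow the median signal from which no background was subtracted, and their scale differs from that of the levels above. With another background correction (normexp) the difference was 0.72 (adjusted p = 0.0932). Within slide 1, with 1 Otx2cKO array, it was 2.29 (adjusted p = 0.744), within slide 2 it was 1.30 (adjusted p = 0.262), and within litter 2 it was 1.69 (adjusted p = 0.779). Leaving out 1 array at a time gave 1.61 to 2.01 (adjusted p 0.171 to 0.455). With the second number of the litter label as a block, a choice made after seeing the data, it was 1.66 (adjusted p = 0.251). Since all 3 Otx2cKO arrays lay above all 4 controls, fits that drop or group these same arrays could only keep the direction. The shared direction across slides and litters therefore adds nothing to it. Among these fits, those with more than 1 array per group gave no limma adjusted p under 0.05.

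**Figure D3:**
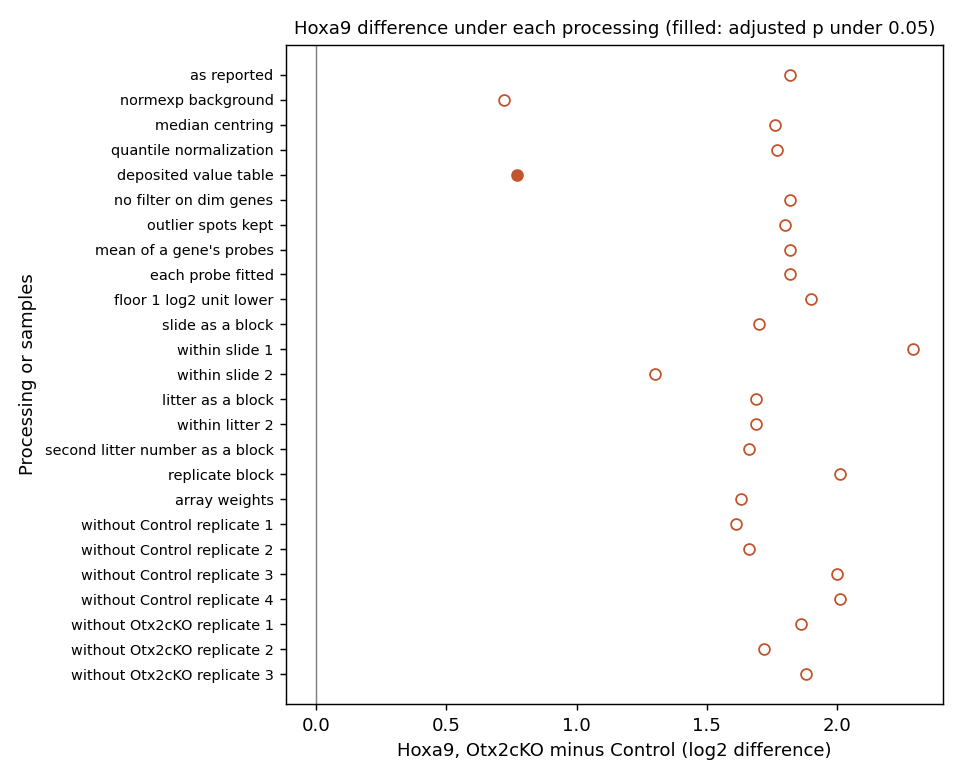
Log2 difference of Hoxa9, Otx2cKO minus control, as reported and under each other processing or choice of samples; the filled point has a limma adjusted p under 0.05. All points lie between 0.72 and 2.29, and the deposited value table, at 0.77, is the one filled.

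The other 3 genes of cluster A differed less. Hoxa3, which shapes the hindbrain and the pharyngeal arches, read -3.64, -3.47, -2.83 and -3.62 on the controls and -3.08, -3.35 and -3.27 on the Otx2cKO arrays (log2 levels). The groups overlapped, with control replicate 3 the highest of all, and the difference was 0.16 ± 0.21 (95% interval -0.34 to 0.66; limma adjusted p = 0.818). Its second probe was on 0 arrays, with signals of -10.1 to -5.6 where the first read 180 to 270, so the gene's detection rests on 1 of its 2 probes. The Hoxa3 gene model overlaps Hoxa4, Hoxa5, Hoxa6, the antisense RNAs Hoxaas2 and Hoxaas3 and others, 8 in all, and the sources used here do not place the probes within it.

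Hoxa7, a trunk gene, was on all 7 arrays with log2 levels of -6.79, -6.62, -5.94 and -5.81 in controls and -6.21, -6.34 and -6.27 in Otx2cKO. These levels come from 1 probe of 1 spot, with signals of 20.7 to 39.5 and software error estimates of 9.54 to 12.6. The highest reading among the Hox genes on no array was 21.8. The Otx2cKO arrays fell inside the control range, and the difference was 0.02 ± 0.255 (95% interval -0.59 to 0.62; limma adjusted p = 0.987). Its sign turned under 10 of the 25 other settings, median centring and quantile normalization among them. The control arrays of slide 2 were both above those of slide 1 for this gene.

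Hoxa6, also a trunk gene, read -6.91, -6.35, -7.18 and -6.36 on the controls and -6.64, -6.01 and -5.96 on the Otx2cKO arrays. Otx2cKO replicates 2 and 3 were the highest of all, but replicate 1, which was not well above background, lay among the controls. The difference was 0.50 ± 0.268 (95% interval -0.13 to 1.14; limma adjusted p = 0.544), and within slide 1 it was -0.0046. Hoxa6 overlaps the models of Hoxa3 and Hoxaas3, so its signal and theirs cannot be told apart by gene name alone.

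In clusters B and C the values jumped between arrays of the same group. Hoxb4, a gene of the posterior hindbrain and of blood progenitors, gave log2 levels of -7.49, -3.98, -6.24 and -5.07 on the controls and -7.00, -6.15 and -7.49 on the Otx2cKO arrays. Control replicate 2 was the highest and control replicate 1 was at the floor, and the control range took in every Otx2cKO array, replicate 3 of which was also at the floor. The log2 difference was -1.18 ± 0.814 (95% interval -3.11 to 0.75; limma adjusted p = 0.637). Its model overlaps that of Hoxb3.

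Hoxb6, a trunk gene, gave signals of 4.37, 2.46, 18.8 and 2.46 on the controls and 24.1, 45.2 and 11.1 on the Otx2cKO arrays. It was well above background on control replicate 3 and on Otx2cKO replicates 1 and 2, and 3 control arrays were at the floor. The difference was 0.84 ± 0.408 (95% interval -0.13 to 1.81; limma adjusted p = 0.504), and it stayed above 0 in all 24 other settings, from 0.22 to 1.59. The model of Hoxb6 overlaps that of Hoxb5os, a transcript named as antisense to Hoxb5.

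Hoxb8, a gene of the trunk and of blood and microglial precursors, gave log2 levels of -6.66, -7.49, -7.26 and -4.87 on the controls and -7.49, -5.83 and -7.49 on the Otx2cKO arrays. Control replicates 1 and 4 and Otx2cKO replicate 2 were high and the rest low, so the split ran across the groups. The difference was -0.36 ± 0.719 (95% interval -2.07 to 1.34; limma adjusted p = 0.886). Its second probe was on 0 arrays.

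Hoxc5, a gene of the neck and thorax, gave log2 levels of -7.49, -5.94, -5.00 and -7.49 on the controls and -6.25, -6.70 and -7.49 on the Otx2cKO arrays. Control replicates 2 and 3 and Otx2cKO replicates 1 and 2 were well above background, and the groups overlapped. The difference was -0.33 ± 0.674 (95% interval -1.93 to 1.26; limma adjusted p = 0.889). The microRNA gene Mir615 lies within its model.

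**Figure D4:**
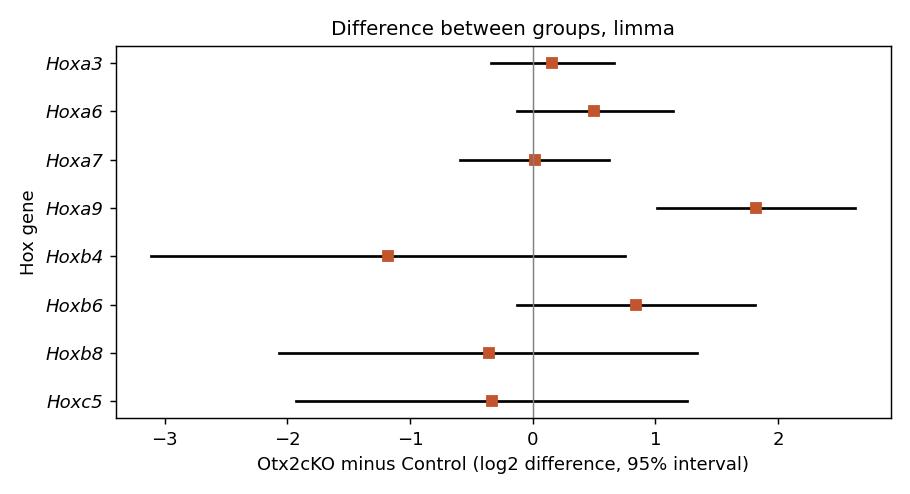
Log2 difference between the Otx2cKO and control means of the 8 tested Hox genes, with 95% intervals from limma (not adjusted for the number of genes). The interval of Hoxa9 runs from 1.01 to 2.63 and lies above 0, and those of Hoxb4, Hoxb8 and Hoxc5 are the widest, each spanning 0.

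The genes beside the clusters were detected more often than the Hox genes, as most named genes were. Of the 24 nearest named genes, 3 on each side of each cluster, 22 (91.7%) were well above background on at least 3 arrays. Over all named genes the share was 79.4%. On all 7 arrays there were 21 of the 24, against 70.9% of all named genes. Mtx2, next to Hoxd1, and Skap1, next to Hoxb1, were on all 7 arrays, while Hoxd1 and Hoxb1 were on 0. Evx2, an even-skipped homeobox gene next to Hoxd13, was on all 7 arrays at log2 levels of -5.91 to -4.90 in the controls and -6.03 to -4.96 in Otx2cKO, a difference of 0.01 ± 0.36. Its relative Evx1, next to Hoxa13, was on 0 arrays. Calcoco1, beside Hoxc13, differed by -0.53 ± 0.125 (limma adjusted p = 0.259) with no overlap between the groups, as for 12.7% of all genes. In the values of the authors' deposited table it passed, at -0.57 with an adjusted p of 0.028. 0 of the 22 neighbours tested passed the limma test and 1 had an unadjusted p under 0.05, as 11.1% of all genes did. Their median difference was 0, and Atp5g1, beside Hoxb13, came next by p at -0.15 ± 0.076 (adjusted p = 0.519).

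The partners of Hox proteins were present throughout. All 10 measured TALE homeobox cofactors (9 of the Pbx, Meis and Pknox families, whose proteins bind DNA together with Hox proteins, and Tgif1) were well above background on all 7 arrays. 0 of the 9 tested passed the limma test and 4 had an unadjusted p under 0.05. Over all genes 11.1% had such a p, the share to set beside the lists below as well. The median log2 difference of the 9 was -0.04, against 0.02 over all genes. Pknox2 read between -0.05 and 0.14 in controls and between -0.45 and -0.32 in Otx2cKO, a difference of -0.40 ± 0.0794 (limma adjusted p = 0.199). Meis3 differed by -0.38 ± 0.102 (adjusted p = 0.289). Neither gene's groups overlapped, which held for 12.7% of all genes, and both were named for having the smallest p of the list.

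The regulators that keep Hox genes off or on were also detected. Of the Polycomb repressive complex 2 list, which deposits the repressive methyl mark on histone H3, all 11 measured genes were on at least 3 arrays, and 0 of 10 tested passed the limma test (0 with an unadjusted p under 0.05; median difference 0). The accessory subunits Phf1 and Mtf2 differed by -0.19 ± 0.103 and -0.20 ± 0.126 (adjusted p = 0.547 and 0.626). Of the Polycomb repressive complex 1 list, which binds that mark, 11 of 12 were on at least 3 arrays and 0 of 10 tested passed (0 with an unadjusted p under 0.05; median 0.04), with Cbx8, a reader of the mark, at 0.28 ± 0.267 (adjusted p = 0.735) and Pcgf2 at -0.17 ± 0.108 (adjusted p = 0.616). Of the opposing Trithorax and MLL group, which keeps Hox genes active, all 10 measured genes were on at least 3 arrays and 0 of 10 passed, with 1 at an unadjusted p under 0.05. That was Kdm6a, a demethylase of the Polycomb mark, at 0.25 ± 0.0806 (adjusted p = 0.347), and Men1, a subunit of MLL complexes, was at -0.20 ± 0.0962 (adjusted p = 0.494). The median of this list was -0.02. Repressors and activators of the clusters thus gave medians near that of all genes.

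Inducers that open the clusters in caudal tissue gave mixed detection. Cdx1 and Cdx2, caudal homeobox genes that switch on trunk Hox genes, were on 0 arrays, and Cdx4 was on 3, reading -3.52 on Otx2cKO replicate 1 and between -7.49 and -5.20 elsewhere. Egr2 (Krox20), the inducer of Hox genes in hindbrain segments, was on 4 arrays with a difference of -0.09 ± 0.362. 0 of the 5 tested genes of this list passed the test, 1 had an unadjusted p under 0.05, and the median was -0.07. Gdf11, a secreted signal that sets posterior Hox borders, differed by -0.07 ± 0.148 (adjusted p = 0.895).

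Markers of other tissue were read beside the Hox genes. The hindbrain and spinal cord list is no clean mark of Hox-active tissue, since some of its genes, such as En2, are also active in Hox-negative midbrain. On the hindbrain and spinal cord list, Pax8, En1 and Mnx1 were on 0 arrays, Phox2a and Pax2 on 2, Tlx3 on 4, Isl2 on 6, and En2, Gbx2 and Fgf8 on all 7. In all, 5 of the 11 measured genes were on at least 3 arrays. The list's summed signal, relative to each array's 75th percentile, was 1.16 to 1.22 in controls and, in Otx2cKO, lay at 0.765, 1.82 and 0.396 on replicates 1 to 3. Gbx2, given below, made up most of that sum in controls. As a mean log2 level against the control mean, the list read -0.09 to 0.16 in controls. On Otx2cKO replicates 1 to 3 that mean was 0.25, 0.68 and -0.24. Hoxa9 and Hoxb6 were also highest on Otx2cKO replicate 2. So were the means of the mesenchyme (1.73), endothelial (0.64), erythroid (0.77) and microglia (0.57) lists given below, so this trait was not particular to the hindbrain list. For the hindbrain and spinal cord list, replicate 1 lay below every control in the sum and above every control in the mean, and replicate 3 below every control in both. In Hoxa9 all 3 lay above every control. Of the list's 5 tested genes 1 passed the limma test. This was Gbx2, a gene of anterior hindbrain that the ganglionic eminences also express, which was lower by -1.89 ± 0.168 on the log2 scale (adjusted p = 0.0171). With 1 array left out its adjusted p was 0.0341 without Otx2cKO replicate 1 and 0.0534 to 0.0972 without any other array. En2, of midbrain and anterior hindbrain and named after its values were seen, read -5.77 to -4.80 in controls and -2.10, -0.35 and -4.42 on Otx2cKO replicates 1 to 3 (3.03 ± 0.882, adjusted p = 0.307), without overlap. The list's median was -0.12, and the part of such tissue in the Hoxa9 values was not tested. On the forebrain list 0 of 12 genes passed the test and 2 had an unadjusted p under 0.05, among them Otx1 at 0.70 ± 0.181 (adjusted p = 0.278), with a median of -0.02. In bulk tissue, fewer cells that express a gene and less RNA per cell cannot be told apart.

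Mesenchyme and meninges carry Hox RNA in the trunk and little in the head. All 12 markers of that list were on at least 3 arrays, and their summed relative signal ran from 3.44 to 26.4 in controls and from 3.56 to 47.6 in Otx2cKO. The 3 arrays on which Hoxb8 was highest, control replicates 1 and 4 and Otx2cKO replicate 2, were also the 3 highest in that sum, at 20, 26.4 and 47.6, and in the sum of the 7 microglia and macrophage markers, at 2.85, 2.65 and 3.68. Control replicate 3, with a mesenchyme sum of 19, close to the 20 of control replicate 1, was not well above background for Hoxb8. As a mean log2 level against the control mean, the mesenchyme list read 0.64 on control replicate 3 and 0.59 on control replicate 1. The mesenchyme match with Hoxb8 thus held in the sum and not in the mean. The microglia and macrophage mean kept the same 3 arrays highest. The part of these cells in the Hoxb8 and Hoxa9 values was not tested. Beside mesenchyme sums of 3.56, 47.6 and 7.5, Hoxa9 signals were 60, 77.6 and 49.3 on Otx2cKO replicates 1 to 3, and beside sums of 20, 3.44, 19 and 26.4 they were 11.2, 12.6, 24.4 and 28.8 on control replicates 1 to 4. The 9 erythroid markers, a sign of blood in the dissected tissue, summed to 192 to 300 in controls and 200 to 317 in Otx2cKO. The 8 endothelial markers summed to 7.91 to 12.9 and 7.13 to 13.2. The 3 highest arrays in each of these 2 sums were not the 3 of Hoxb8, though the endothelial gap was small. Within those 3 arrays, the mesenchyme and microglia sums did not share the order of Hoxb8 either. Control replicate 3 was among the 3 highest arrays in both, at 300 and 12.1, and control replicate 1 in neither, at 233 and 11.9. 0 genes of these 4 lists passed the limma test and 0 had an unadjusted p under 0.05. Their medians were -0.16 for mesenchyme, 0.19 for erythroid, -0.14 for endothelial and 0 for microglial genes. All 9 erythroid differences were above 0, as were 54.2% of those of all genes. Against the control mean, the erythroid list averaged 0.17, 0.77 and -0.17 on Otx2cKO replicates 1 to 3 and -0.49 to 0.43 in controls (log2).

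The members with the smallest p were spread over both directions. In mesenchyme, Dcn differed by -2.71 ± 1.85 with 1 array of each group dropped for an outlier flag (-1.47 with such spots kept, -1.39 in the values of the authors' deposited table), and Prrx1 by 0.19 ± 0.155 (adjusted p = 0.648 and 0.698). In endothelium, Robo4 differed by -0.41 ± 0.179, with Otx2cKO replicate 2 dropped, and Tie1 by -0.32 ± 0.241 (adjusted p = 0.471 and 0.67). Among erythroid genes, Tspo2 differed by 0.36 ± 0.16 and Epb42 by 0.78 ± 0.424 (adjusted p = 0.465 and 0.552). Among microglial genes, Aif1 differed by 0.24 ± 0.231 and Cx3cr1 by -0.18 ± 0.259 (adjusted p = 0.743 and 0.834).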

How the data were processed

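Per the labels, RNA was hybridised in Cy3 to Agilent whole mouse genome 4x44K arrays. Per the file headers, Feature Extraction 10.7.3.1 made the deposited intensity values (the submitters' processing notes name 10.5), with background already subtracted, and its flags. The series' own table holds log2 values that the authors deposited: they rank probes as the median signal does (rank correlation at least 0.99996), with column medians of 7.61 to 7.64, and the sources used here do not give their centring.

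Here control spots and outlier-flagged spots were dropped. Signals were scaled to the 75th percentile of their array, given a floor (log2 level -7.49), log2-transformed and averaged over the spots of a probe, and the brightest probe stood for a gene. Genes well above background on at least 3 of 7 arrays with at least 2 unflagged values per group were fitted with limma 3.58.1 (R 4.3.3), with Benjamini-Hochberg adjustment over 13341 genes at 0.05. A probe with several spots was detected where at least as many unflagged spots had the flag as lacked it. Of 41174 probes, 24844 had 1 symbol through RefSeq accessions (GRCm38.p6) and 16330 had none. Normexp, an alternative (offset 50), used median signals in place of mean signals, which the files lack.

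The Hox rule, the gene lists and the tests were chosen with earlier results of these data known. Named genes were every Hox gene on at least 3 arrays, those on 1 or 2 arrays with the arrays, and per list the genes past the threshold or the 2 with the smallest p; Evx2, Cdx4, Egr2 and En2 were named outside this rule, after their values were seen. Some genes of the rule and lists are counted but not reported by name here. The fit was tested on simulated data. The number of arrays limits the precision. With 1 embryo per array, p-values rest on the spread between arrays, in which embryo, litter, slide and measurement error near background cannot be told apart. Alternatives were other background correction, scaling, filters, floor, probe choice, array weights, slide, litter and replicate number as blocks, and each array left out.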

Additional observations from a re-analysis of the deposited data

Results flagged for a closer look

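In each of these groups 1 control array lay apart from the other 3 by Dixon's ratio of the gap to the range. Chance alone gives about 1 in 20 such groups, and 4 of the 29 groups examined exceeded the limit. In the first pair below the other 3 controls tie, at the floor or at the same whole number, which makes the ratio 1 at any distance, so the count of 4 is not read against chance.

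Hoxb6 read -6.67 on control replicate 3 while the other 3 controls were all at the floor of -7.49. The number of Hox genes well above background was 8 on control replicate 3 and 7 on each of the other controls. Gbx2 read -0.34 on control replicate 4, with the nearest control at -0.08. Tie1, an endothelial receptor gene, read -0.47 on control replicate 2, with the nearest at 0.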

How the results depend on the processing

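Hox detection depended on the flag used: with the software's positive-and-significant flag, 14 Hox genes in place of 8 were on at least 3 arrays and 6 in place of 2 on all 7. The share of all named genes with that flag is not given here, so the rise is not read as a result about Hox genes. Requiring also a signal above the 95th percentile of negative controls, an alternative chosen after seeing the data, moved no count by over 1.5 times. Leaving out 1 array gave 6 to 8, with 6 without Otx2cKO replicate 2.

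The count of genes called, 28, was 46 with normexp, 43 in the deposited value table, 11 with no filter on dim genes, 17 with a slide block, and 0 within slide 1, within slide 2, with litter as a block, within litter 2, with the second litter number as a block (chosen after seeing the data) and with the replicate block (Hoxa9 then 2.01, adjusted p = 0.341). Same-numbered arrays did not deviate together (r = 0.11, -0.53 and 0.03). Leaving out 1 array gave 0 to 25 genes, with 12 without control replicate 1, 3 without Otx2cKO replicate 2, and 0 without control replicate 2, 3 or 4 or Otx2cKO replicate 3. Hox genes called went from 0 to 1 (Hoxa9) in the value table. The Hox median, 0.09, was 0.47 within slide 1 and -0.26 within slide 2, and -0.04 to 0.25 with 1 array left out. Why these moved was not tested.

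Of the 194 values of the 8 Hox genes, 20 changed sign, none of Hoxa9, Hoxb4 or Hoxb6. Hoxa7 was -0.06 with median centring, -0.12 with quantile normalization, -0.05 in the value table, -0.06 with a slide block, -0.43 within slide 2, -0.09 both with array weights and with the second litter number as a block, and -0.15 to 0.18 with 1 array left out. Hoxa3 was -0.08 within slide 2 and -0.02 both with litter as a block and within litter 2. Hoxa6 was -0.0046 within slide 1. Hoxb8 was 0.05 with normexp, 0.20 with the replicate block and 0.20 without control replicate 4 (-0.92 to 0.20 with 1 array left out). Hoxc5 was 0.47 within slide 1, 0.16 without control replicate 3 and 0.0022 without Otx2cKO replicate 3 (-0.67 to 0.16 with 1 array left out). Among other genes named, Robo4 was 0.01 in the value table, Mtf2 0.03 with outlier spots kept, Gdf11 0.11 within slide 1 and 0.02 without Otx2cKO replicate 2 (-0.21 to 0.02 with 1 array left out), and Cx3cr1 0.04 without Otx2cKO replicate 3 (-0.42 to 0.04). Otx2 and Gbx2 kept their direction, though not their call in every setting. Signal near background limits the Hox values: levels at the floor have no order.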
